A study of Mus musculus with 6 samples.

Results

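Gpnmb and 7 further genes known from lipid-laden macrophages (Trem2, Spp1, Lgals3, Ctsk, Atp6v0d2, Fabp5 and Mmp12) were followed in the lungs of mice carrying an activated human SRY transgene, SRY being the testis-determining gene. Members were taken as every array row whose gene symbol equals one of these 8 names, of 18138 symbols in all, which gave 12 of the 25697 probes on the array (4 for Gpnmb, 2 for Fabp5 and 1 for each other gene). Gpnmb was included because of its large rise between the groups, so its difference is described here and not tested. The remaining genes were chosen by name, with earlier results of the same comparison known, and only the fit over all probes was used for them.

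The 6 samples were whole lungs taken from male pups (strain FVB in the labels, FVB/N in the methods) on postnatal day 6 (P6), 3 labelled hSRY-OFF and 3 labelled hSRY-ON, with 1 Illumina BeadChip array for each sample. The arrays are called OFF1 to OFF3 and ON1 to ON3 by their replicate numbers. Per the study's methods, both designations refer to a single-copy transgene at a chosen locus, in which the CAG promoter drives the red fluorescent protein DsRed2 until Cre recombinase deletes it and joins the promoter to FLAG-tagged human SRY and EGFP. In hSRY-ON mice the Cre protein came from the egg of a Ddx4-Cre mother, recombination took place in the early embryo, and the mice used for the arrays did not inherit the Cre transgene. The hSRY-OFF label stands for the unrecombined transgene, although elsewhere the study's comparison animals are littermates that lack it. With unrecombined controls the groups would also differ in DsRed2 and EGFP, and possibly in mother and litter. Effects of these cannot be told apart from those of human SRY here. Over the tested probes the arrays correlated at 0.991 to 0.993 within hSRY-OFF and at 0.972 to 0.98 within hSRY-ON. The CAG promoter is active in most cell types, so the model is not restricted to macrophages or to the lung. Whole lung RNA was measured, so more cells of a type and more RNA per cell cannot be told apart in any of the values below.

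Macrophages that take up lipid, for example surfactant, myelin or lipoproteins, switch on a shared set of genes for sensing, carrying and degrading it. Trem2 is a surface receptor for lipids that signals through the adaptor Tyrobp. Gpnmb is a transmembrane glycoprotein of lysosomes, melanosomes and the cell surface, and Atp6v0d2 is a subunit of the V-ATPase, the pump that acidifies lysosomes. Fabp5 carries fatty acids in the cytoplasm, Lgals3 (galectin 3) binds galactosides, Spp1 (osteopontin) is a secreted ligand of integrins and CD44, Ctsk (cathepsin K) is a collagen-cleaving protease, and Mmp12 is the macrophage elastase. In the lung, alveolar macrophages clear surfactant lipid after birth. Several of these genes are also used by osteoclasts, and Lgals3, Spp1, Ctsk and Fabp5 are not limited to macrophages.

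The bases just before the RefSeq transcript start are shown for the member chosen for its rise (Gpnmb), for the 3 other members that were higher in hSRY-ON lungs (Trem2, Lgals3 and Ctsk) and for the 1 that was lower on every hSRY-ON array (Spp1, the first of its 2 RefSeq starts). Each run holds the 250 bases before the start, 5′ to 3′ on the plus strand of GRCm38.p6. Capitals mark matches on either strand to AP-1 (TGACTCA), an E-box (CACGTG), the M-box core (CATGTG), RUNX (AACCACA) or PU.1 (GAGGAAGT).
Gpnmb, chr6:49036268-49036517: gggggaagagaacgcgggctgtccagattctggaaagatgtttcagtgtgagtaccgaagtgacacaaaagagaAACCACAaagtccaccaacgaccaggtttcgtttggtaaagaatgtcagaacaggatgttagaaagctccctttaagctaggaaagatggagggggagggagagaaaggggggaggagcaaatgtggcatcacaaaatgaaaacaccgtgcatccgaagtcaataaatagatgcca
Trem2, chr17:48346151-48346400: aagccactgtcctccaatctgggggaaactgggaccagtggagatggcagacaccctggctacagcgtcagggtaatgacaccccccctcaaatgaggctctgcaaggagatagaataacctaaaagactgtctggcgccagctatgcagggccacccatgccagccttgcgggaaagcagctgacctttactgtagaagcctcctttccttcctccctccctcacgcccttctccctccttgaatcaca
Lgals3, chr14:47373610-47373859: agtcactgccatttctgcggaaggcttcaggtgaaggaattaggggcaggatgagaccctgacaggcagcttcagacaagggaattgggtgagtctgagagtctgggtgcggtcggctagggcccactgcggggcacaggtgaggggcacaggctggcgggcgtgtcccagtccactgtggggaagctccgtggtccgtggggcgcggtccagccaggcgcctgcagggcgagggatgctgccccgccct
Ctsk, chr3:95498960-95499209: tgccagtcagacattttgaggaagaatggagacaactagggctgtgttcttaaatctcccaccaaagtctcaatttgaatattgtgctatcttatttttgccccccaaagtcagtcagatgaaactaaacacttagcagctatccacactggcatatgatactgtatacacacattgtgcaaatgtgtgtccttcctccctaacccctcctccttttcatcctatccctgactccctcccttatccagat
Spp1, chr5:104434861-104435110: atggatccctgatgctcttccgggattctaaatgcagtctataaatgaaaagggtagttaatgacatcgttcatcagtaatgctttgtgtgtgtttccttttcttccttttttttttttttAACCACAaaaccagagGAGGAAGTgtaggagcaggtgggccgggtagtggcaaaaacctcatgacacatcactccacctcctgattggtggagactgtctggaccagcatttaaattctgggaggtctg

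The search covered RefSeq windows of 300 bases, from 250 before to 50 after the start, and 6 of the 8 members had a window. Gpnmb had 1 RUNX match starting 176 bases before the start and 1 AP-1 match starting at base 9 of the transcript, in the stretch ggggcaagTGACTCAtgagcacg. Spp1 had 1 RUNX match 129 bases before its start and 1 PU.1 match 113 bases before it. The windows of Trem2, Lgals3 and Ctsk held none of the letters searched, nor did the other Spp1 window. Mmp12, whose sequence is not shown because it was not detected, had a PU.1 match in 1 of its 2 windows, and an AP-1 match and an M-box core in the other. Of all 32851 windows in the table, 5.2% held the AP-1 letters, 7.15% the E-box, 14.2% the M-box core, 5.27% the RUNX letters and 3.2% the PU.1 letters. A match is a description of the sequence and was not related to binding here.

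A probe was called detected on an array at a detection p under 0.05, the share of negative control probes that were brighter, and was tested if detected on at least 3 of the 6 arrays. Values are normalized log2 intensities, on which a difference of 1 is a doubling. Of the 12 member probes, 5 were detected on all 6 arrays, 4 on none, and 7 probes of 6 genes were tested. Atp6v0d2 and Mmp12 had no tested probe. Among the 5 tested probes outside Gpnmb, 3 were called higher in hSRY-ON (Trem2, Lgals3 and Ctsk), 0 were called lower and 2 were not called (limma, adjusted p under 0.05, Benjamini-Hochberg over all 13841 tested probes). Over all tested probes 26.9% were called, 13.6% higher and 13.3% lower. With 5 probes, chosen with results known, no reading of their share against that background is made. Of the same 5 probes, 3 lay higher in hSRY-ON without overlap of the groups and 1 (Spp1) lay lower, where 46.6% of all tested probes did not overlap in either direction and 22.4% lay higher. Their median difference was 0.97 on the log2 scale, and that of all tested probes was -0.03.

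**Figure D1:**
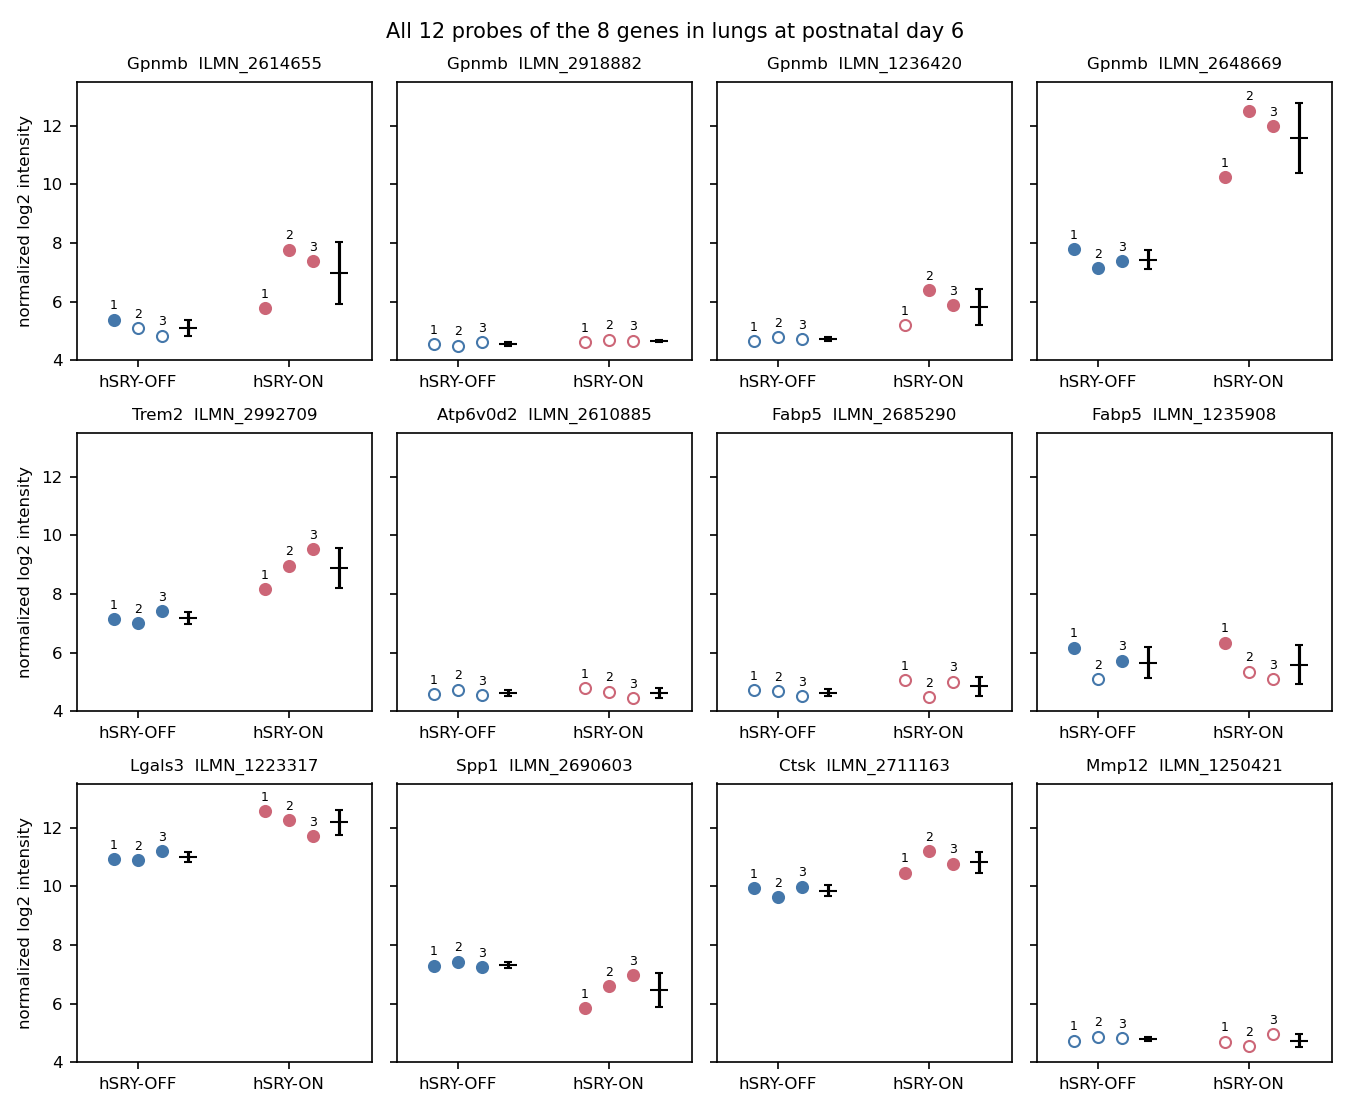
Normalized log2 intensity (vertical axis) of all 12 probes of the 8 genes in 3 hSRY-OFF (blue) and 3 hSRY-ON (red) lungs. Points are arrays with their replicate number, filled where detected and open where not, and black bars give the mean ± SD. Heights of different probes are not comparable. Gpnmb probe ILMN_2648669 reached 12.51 on ON2, and the panels of Atp6v0d2 and Mmp12 hold only open points.

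Gpnmb had the largest difference of the members. Its brightest probe, ILMN_2648669, was at 7.79, 7.14 and 7.38 in OFF1 to OFF3 and at 10.24, 12.51 and 11.98 in ON1 to ON3. All hSRY-ON arrays lay above all hSRY-OFF arrays, and ON1 was well below the other hSRY-ON arrays. On the linear scale as deposited, before background correction, the same probe read 368, 269 and 346 in hSRY-OFF and 1200.2, 6009 and 4468 in hSRY-ON. The group means were 7.44 ± 0.33 (SD, n = 3) and 11.57 ± 1.19 (SD, n = 3), a difference of 4.14 or 17.6-fold.

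The other Gpnmb probes were dimmer and did not give the same size. ILMN_2614655 was at 5.39, 5.10 and 4.84 in hSRY-OFF, where it was detected on 1 array, and at 5.78, 7.77 and 7.38 in hSRY-ON, where it was detected on 3. Its groups did not overlap either, with a difference of 1.86. ILMN_1236420 was detected on no hSRY-OFF array and on 2 hSRY-ON arrays, was not tested, and was at least 1.45-fold higher in hSRY-ON when the lowest detected signal of each hSRY-OFF array was taken as its level there. ILMN_2918882 was detected on no array. On each probe with a detected signal, ON1 was the lowest and ON2 the highest of the hSRY-ON arrays. Without background correction the difference of ILMN_2648669 was 3.36 and that of ILMN_2614655 fell to 0.70.

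Trem2, the lipid receptor, rose. Its probe was at 7.14, 7.01 and 7.41 in hSRY-OFF and at 8.17, 8.96 and 9.53 in hSRY-ON. The groups did not overlap, and the hSRY-ON arrays were spread more widely than the hSRY-OFF arrays. The difference was 1.70 with a standard error of 0.33, or 3.24-fold (limma, adjusted p = 0.0111), and it was 1.12 without background correction. Lgals3 was at 10.92, 10.89 and 11.20 in hSRY-OFF and at 12.57, 12.26 and 11.70 in hSRY-ON. Here ON1 was the highest array, the reverse of its place for Gpnmb and Trem2. The rise was 1.17 with a standard error of 0.23, or 2.25-fold (limma, adjusted p = 0.0119).

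Of the 2 proteases, Ctsk was detected on all arrays. It was at 9.93, 9.63 and 9.98 in hSRY-OFF and at 10.47, 11.20 and 10.77 in hSRY-ON. The groups did not overlap, and the order of the hSRY-ON arrays was that of Gpnmb. The rise of Ctsk was 0.97 with a standard error of 0.21, or 1.95-fold (limma, adjusted p = 0.0156). Lgals3 lost its call without OFF1 (a difference of 1.13, adjusted p = 0.0519) or OFF2 (1.12, 0.0528). Ctsk lost its call in the same fits (1.01 and 0.0532 without OFF1, 0.86 and 0.0654 without OFF2). Trem2 kept its call whichever array was left out, with an adjusted p of at most 0.0495. The elastase Mmp12 was detected on no array, with detection p between 0.144 and 0.753, and no difference can be read for it at this signal over background.

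Spp1 lay lower in hSRY-ON without passing the test. It was at 7.30, 7.44 and 7.24 in hSRY-OFF and at 5.85, 6.60 and 6.98 in hSRY-ON. Every hSRY-ON array lay below every hSRY-OFF array, with ON1 the lowest. The difference of -0.85 (standard error 0.27, unadjusted 95% interval -1.49 to -0.21) did not pass the threshold (limma, adjusted p = 0.0573, unadjusted p = 0.0165). It passed under 8 of the 16 alternatives to the processing, among them median scaling (adjusted p = 0.0365), no background correction (0.0407, with a difference of -0.37) and the fits without ON1 (0.0428, with a difference of -0.54) or ON3 (0.0181). Its sign was negative in all 16.

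Atp6v0d2 was detected on no array, with detection p between 0.308 and 0.965, so its level in either group is below what these arrays resolve. Of the 2 probes of Fabp5, ILMN_2685290 was detected on no array. ILMN_1235908 was at 6.17, 5.10 and 5.73 in hSRY-OFF, detected on 2 arrays, and at 6.34, 5.35 and 5.10 in hSRY-ON, detected on 1. The groups overlapped, and the difference was -0.07 with a 95% interval of -0.97 to 0.83 (limma, adjusted p = 0.910). The interval still allows a change of nearly 1 in either direction. Its sign turned without ON2 (0.06) or ON3 (0.18). Fabp5 has close copies in the mouse genome, and whether these probes tell them apart was not examined.

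The variation among the members was thus of several kinds. Over the 6 arrays the Pearson correlation with Gpnmb ILMN_2648669 was 0.974 for Ctsk, 0.962 for the Gpnmb probe ILMN_2614655, 0.957 for Trem2, 0.78 for Lgals3, -0.23 for Fabp5 and -0.58 for Spp1. The points share the group difference, and many unrelated probes had values as high. A correlation above that of Ctsk was found for 1.24% of tested probes, above that of Trem2 for 3.11% and above that of Lgals3 for 20% of them. The 5 probes of other genes most like Gpnmb over the 6 arrays were those of Vill, Ttc39a, Slc25a12, Gramd2 and Osbpl3, with a Pearson correlation between 0.998 and 0.999. Vill was detected on no hSRY-OFF array and was at least 1.68-fold higher in hSRY-ON. The differences of the other 4 were between 0.76 for Slc25a12 and 1.44 for Osbpl3, an oxysterol-binding protein relative, so their resemblance lies in the order of the arrays and not in the size.

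To see how macrophage genes in general differed, 19 macrophage markers were followed, each on its tested probe of highest mean. Of 15 tested, 8 were called higher, 0 lower and 7 were not called, with a median difference of 0.75. Of the 10187 genes tested in this way 27.9% were called, 15% higher and 12.9% lower, with a median of -0.01. These shares are the background for every list count below, and a count near them is not a result about its list. Marco, a scavenger receptor of alveolar macrophages, rose by 2.56 and Mertk, a receptor for dying cells, by 1.78 (limma, adjusted p = 0.00642 and 0.00196). Cd68, a lysosomal glycoprotein of macrophages, rose by 1.33 (limma, adjusted p = 0.0135). Csf1r, the receptor of the macrophage growth factor, and Adgre1 (Emr1 on the array), a surface antigen of macrophages, differed by 0.41 and 0.09 and were not called (limma, adjusted p = 0.305 and 0.826), nor were their other probes. Neither probe of the leukocyte antigen Ptprc was detected on any array, and that of the integrin Itgax was not detected either, so not every gene that defines the lineage could be read. Without OFF1, 4 markers were called higher, and 5 without OFF2. In those fits Cd68 had an adjusted p of 0.0523 and 0.0522. Leaving out an array also changed the number of calls over all probes, as given at the end. Counts in such fits are therefore not read as particular to a list, here or below. The rise of Marco was 1.17 without background correction.

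The members were then expressed relative to the mean log2 value of the 15 markers on the same array, a mean that was between 9.04 and 9.12 in hSRY-OFF and between 9.80 and 10.03 in hSRY-ON. Gpnmb, chosen for its rise, differed between its probes. ILMN_2648669 did not overlap, from -1.91 to -1.25 in hSRY-OFF and from 0.44 to 2.48 in hSRY-ON, while ILMN_2614655 overlapped, from -4.28 to -3.65 against -4.02 to -2.26. Trem2 did not overlap either, from -2.04 to -1.71 against -1.63 to -0.50. For Lgals3 the relative difference was 0.29 and for Ctsk 0.08, and for both the groups overlapped. Spp1 lay between -1.88 and -1.62 in hSRY-OFF and between -3.95 and -3.05 in hSRY-ON. Fabp5 ILMN_1235908 overlapped, with a relative difference of -0.95. The values are descriptive, with no test, and a ratio within an array shows only that probes changed unequally.

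**Figure D2:**
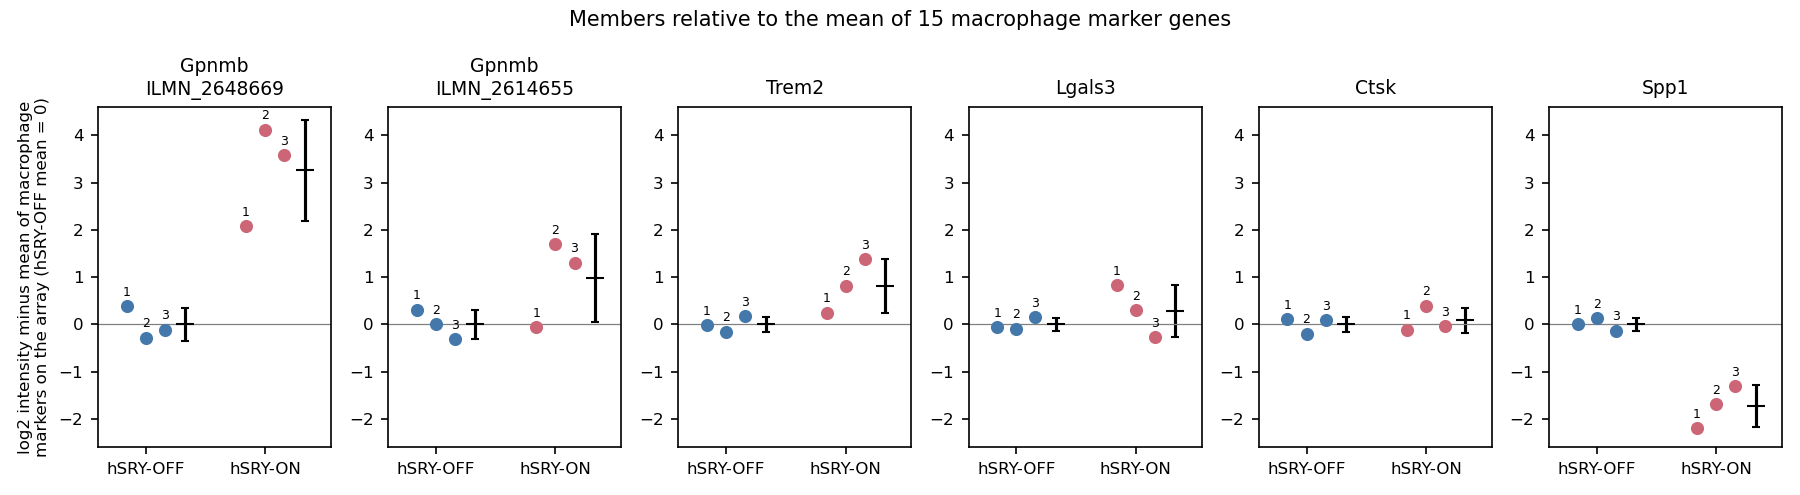
Log2 intensity of 6 probes of 5 members minus the mean of 15 macrophage marker genes on the same array (vertical axis, with the hSRY-OFF mean set to 0) for hSRY-OFF (blue) and hSRY-ON (red) arrays, numbered by replicate, with black bars for the mean ± SD (n = 3). The hSRY-ON mean lay 3.26 and 0.98 above the hSRY-OFF mean for the Gpnmb probes and 0.82 above it for Trem2, within 0.3 of it for Lgals3 and Ctsk, and 1.73 below it for Spp1 (-1.73).

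Genes that carry and store lipid in foam cells were examined next, 17 in number. Which cells of the lung expressed them was not examined. Of 11 tested, 6 were called higher, 1 lower and 4 were not called, with a median difference of 1.02. Apoe, the apolipoprotein made by macrophages, was at 10.59, 10.92 and 10.98 in hSRY-OFF and 12.22, 12.91 and 12.64 in hSRY-ON, a rise of 1.76 (limma, adjusted p = 0.00227). Plin2, the coat protein of lipid droplets, rose by 1.02 and Lpl, which hydrolyses lipoprotein triglyceride, by 1.20 (limma, adjusted p = 0.00563 and 0.0126). Lpl lost its call without OFF2 (adjusted p = 0.0536). The gene called lower, named after its value was seen, was Pltp, a phospholipid transfer protein, with a difference of -0.99 (limma, adjusted p = 0.00572). A second gene was called lower without ON1. Cd36, Msr1, Lipa, Abca1 and Fabp4, further genes of lipid uptake, hydrolysis and efflux, were not detected on any array.

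Around Trem2 itself, 9 of 10 signalling genes were tested, with 5 called higher, 0 lower and a median of 0.90. Tyrobp, through which Trem2 signals, was at 8.96, 9.07 and 9.16 in hSRY-OFF and 9.74, 10.21 and 10.25 in hSRY-ON, a rise of 2.01-fold (limma, adjusted p = 0.00692). Vav1, an exchange factor downstream of such receptors, rose by 1.46 (limma, adjusted p = 0.00832). Without OFF1 or OFF2, 2 of the list were called, and 3 without OFF3. Of 7 tested relatives of Trem2 in the TREM and CD300 families, 3 were called higher and 0 lower, with a median of 0.74. Cd300lf, a lipid-binding receptor of myeloid cells, rose by 2.36 and Trem3 by 1.18 (limma, adjusted p = 0.00352 and 0.0111). Without background correction these were 1.18 and 0.43, and Trem3 lost its call without OFF1 (adjusted p = 0.0507).

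Gpnmb, Ctsk and Atp6v0d2 are known targets of the MiT-TFE transcription factors, which control lysosome genes. The probe of Mitf was not detected on any array. Of 7 tested genes among these factors and their regulators, 4 were called higher and 0 lower, with a median of 0.46. One of the 4 was Tfeb, a factor of this family named after its value was seen, which had 0 detections in hSRY-OFF and 3 in hSRY-ON. It passed the filter only through hSRY-ON, was at least 1.15-fold higher there, and set the list median. Where detection on all 6 arrays was required, Tfeb was left out. Then 4 of 6 tested genes were called higher, Rragc among them, with a median of 0.45. Sqstm1, an autophagy receptor, rose by 0.57 and Flcn, which restrains these factors, by 0.63 on 1 of its 2 probes (limma, adjusted p = 0.0136 and 0.0292), while the other Flcn probe differed by 0.17 and was not called. The calls of this list were few without single arrays, 0 without OFF1, 0 without OFF2, 1 without OFF3, 1 without ON2 and 2 without ON3. The number called over all probes also changed when an array was left out, so these counts are not read as particular to the list. In the fits without each hSRY-OFF array the adjusted p of Sqstm1 was between 0.0542 and 0.0598. That of Flcn was between 0.0715 and 0.104 in those fits and was 0.0634 without ON2.

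Of 17 tested lysosomal and tetraspanin genes of such macrophages, 7 were called higher and 0 lower, with a median of 0.39. Over all tested genes 15% were called higher and 12.9% lower. Cd68, 1 of the 7, was also counted among the macrophage markers. Ctsl and Ctsz, both cathepsins, rose by 0.95 and 0.70 (limma, adjusted p = 0.00497 and 0.0124). Ctsl rose by 0.62 without background correction, and Ctsz lost its call without OFF1 (adjusted p = 0.0597) or OFF2 (0.0533). The number called was 1 without OFF1, 1 without OFF2, 4 without OFF3 and 3 without ON2. The list of V-ATPase subunits left out Atp6v0d2 and also Tcirg1, which is counted with the osteoclast genes below. Of its 15 tested genes, 1 was called higher, a smaller share than over all genes, and 0 lower, with a median of 0.30. This was Atp6v1e1, with a rise of 0.58 (limma, adjusted p = 0.0259), which lost its call without each hSRY-OFF array (adjusted p between 0.0666 and 0.103) or without ON2 (0.0693). Without ON1 or ON3, 3 and 2 subunits were called higher, and the count was 5 without background correction and 6 with a variance trend and robust estimation, with Atp6v1e1 among them each time.

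The osteoclast programme shares Ctsk and Atp6v0d2 with these macrophages. Of its 8 tested genes 2 were called higher and 0 lower, with a median of 0.22. Over all tested genes 15% were called higher and 12.9% lower. Both calls were of genes used by lysosomes more widely, Tcirg1, a V-ATPase subunit (1.14), and Ostm1, the partner of a lysosomal chloride transporter (0.64; limma, adjusted p = 0.0124 and 0.0171). Another Tcirg1 probe was called at 1.16 (limma, adjusted p = 0.0110). The dimmer probes of Tcirg1 were not called, at 0.71 and 0.91 (limma, adjusted p = 0.0782 and 0.102). Acp5, which encodes the tartrate-resistant acid phosphatase, differed by 0.29 and was not called (limma, adjusted p = 0.231). Of the 8 tested genes 5 lay above 0. Clcn7 and Nfatc1, named after their values were seen, differed by -0.26 and -0.40 and were not called (limma, adjusted p = 0.332 and 0.105). The probes of Calcr, Dcstamp, Ocstamp and Itgb3 were detected on no array. The number called was 0 without OFF1, where Tcirg1 and Ostm1 had an adjusted p of 0.0544 and 0.0766, and 1 without OFF3, where that of Ostm1 was 0.0599. It was 4 without ON1, where Oscar and Mmp9 were called higher beside Tcirg1 and Ostm1.

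Among galectins other than Lgals3, 2 of 5 tested genes were called higher and 0 lower, with a median of 0.28. With 5 genes, no reading against the 15% of all tested genes called higher is made. Lgals4, an epithelial galectin, rose by 1.42 and Lgals2 by 0.93 (limma, adjusted p = 0.00233 and 0.0131). The other probe of Lgals4 did not pass the threshold (limma, adjusted p = 0.0537). Lgals2 was detected on 2 of 3 hSRY-OFF arrays, was at 0.30 without background correction, and lost its call without OFF1 (adjusted p = 0.0577) or OFF3 (0.0509), which left 1 galectin called higher, as did detection on all 6 arrays. Without background correction 3 galectins were called higher and 2 lower, Lgals1 and Lgals9. Lgals1 alone was called lower with an offset of 50, with a variance trend and robust estimation, with array weights and without ON3. Of 6 fatty acid binding proteins other than Fabp5, only Fabp3, the form of heart and muscle, was tested, and it was lower by -0.78 (limma, adjusted p = 0.0163), a call that was lost without OFF2 (0.0690) or OFF3 (0.0607).

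Among cysteine cathepsins other than Ctsk, 4 of 8 tested genes were called higher and 0 lower, with a median of 0.62. Ctsh, which processes surfactant protein in alveolar type II cells, averaged 13.75 ± 0.04 (SD, n = 3) in hSRY-OFF and rose by 0.87 (limma, adjusted p = 0.00264). Ctsw, a cathepsin of cytotoxic lymphocytes named after its value was seen, was detected on 3 hSRY-OFF arrays and 1 hSRY-ON array and differed by -1.52 without passing the threshold (limma, adjusted p = 0.0513). It was called lower without background correction, with an offset of 50, with median scaling and with a variance trend and robust estimation. The same held with array weights, with the replicate number as a block and without ON3. Of 6 tested metalloproteinases and protease inhibitors, 2 were called higher and 0 lower, with a median of 0.43. Both were inhibitors of metalloproteinases, Timp1 with a rise of 0.84 and Timp3 with a rise of 0.75 (limma, adjusted p = 0.00687 and 0.0116). A second, dimmer probe of Timp3 was not called, and 1 gene of the list was called without OFF1, where Timp3 had an adjusted p of 0.0541. Mmp14 was called lower without background correction and with a variance trend and robust estimation.

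For the receptors and partners of osteopontin and GPNMB, 9 genes were tested, with a median of -0.12. Of these, 0 were called higher and 1 lower, where 12.9% of all tested genes were called lower. The call was Itgb6, an epithelial integrin subunit, with a difference of -0.59 (limma, adjusted p = 0.00996). Another of its 3 probes was called at -1.04 and the remaining one was not, at -0.45. With median scaling or detection on all 6 arrays 3 genes were called lower, Itgb6 with the integrin subunits Itgb1 and Itga9. The count was 2 without background correction, with an offset of 50, with a variance trend and robust estimation, with array weights, without OFF3 and without ON1. Lgals3bp, a ligand of galectin 3, was called higher without background correction, with an offset of 50, with the variance trend and without ON1.

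**Figure D3:**
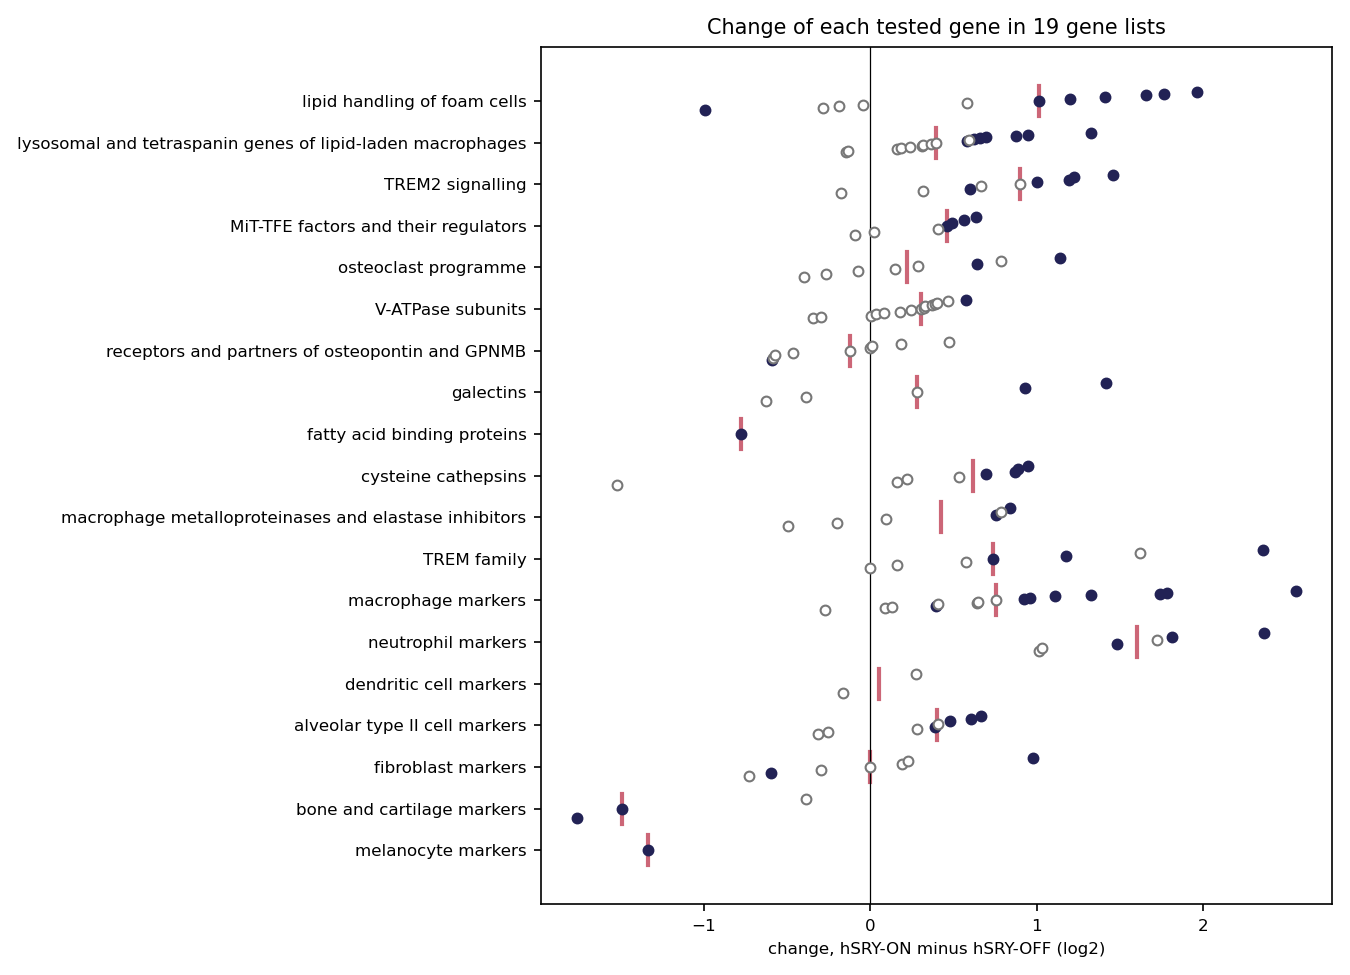
Difference between the hSRY-ON and hSRY-OFF means on the log2 scale (horizontal axis) for each tested gene of 19 gene lists (rows), with filled points for genes called at an adjusted p under 0.05 and open points for the others. Red lines are list medians, such as 1.02 for lipid handling genes, 0.75 for macrophage markers and -0.12 for the receptors and partners of osteopontin and GPNMB.

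Markers of other cells moved as well, and their part in the values of the members was not tested. The lung identity of the samples was plain, since all 8 alveolar type II cell markers were tested. Of these, 4 were called higher and 0 lower, with a median of 0.40, and their summed normalized intensity was between 75422 and 76716 in hSRY-OFF and between 91371 and 96186 in hSRY-ON. Sftpb rose by 0.67 and Abca3 by 0.60 on 1 of its 2 probes (limma, adjusted p = 0.0080 and 0.00888), and 2 of the list were called without any 1 of the hSRY-OFF arrays or without ON2. Lamp3 was called lower without background correction, and Lamp3 and Sftpc with a variance trend and robust estimation. Of 6 tested neutrophil markers, 3 were called higher and 0 lower, with a median of 1.60, and their sum was between 5028 and 5739 in hSRY-OFF and between 8983 and 34749 in hSRY-ON, highest on ON3, the array that was also highest for Trem2 and for Spp1 within hSRY-ON. Ltf rose by 2.36 and S100a8 by 1.48 (limma, adjusted p = 0.0122 and 0.0272). The neutrophil count was 1 without OFF1, 0 without OFF2, 1 without OFF3 and 5 without ON1. In these fits S100a8 had an adjusted p of 0.0875, 0.0878 and 0.0722 without OFF1, OFF2 and OFF3, and 0.0628 without ON2, and Ltf had 0.0521 without OFF2.

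Gpnmb is also a gene of melanosomes, Spp1 of bone, Ctsk of fibroblasts and bone, and Mmp12 and Gpnmb of some dendritic cells. Of 6 melanocyte markers only Mlana was tested, and it was lower by -1.33 (limma, adjusted p = 0.00286). It was detected on 3 hSRY-OFF arrays but on 1 hSRY-ON array, so the size of this difference is uncertain. Its normalized intensity went from between 83.9 and 95.4 in hSRY-OFF to between 29.9 and 44.2 in hSRY-ON, and the difference was -0.41 without background correction. Tyr, Tyrp1, Dct and Slc45a2 were detected on no array. Of 3 tested bone and cartilage markers, 2 were called lower, Col2a1 (-1.76) and Phex (-1.49; limma, adjusted p = 0.00369 and 0.0174), with a median of -1.49. Their sum was between 1343 and 1425 in hSRY-OFF and between 451 and 804 in hSRY-ON. Phex made up most of this sum, with a mean log2 of 10.05 in hSRY-OFF against 6.84 for Col2a1. The osteoblast genes Dmp1 and Sp7 were detected on no array. Col2a1 was detected on 1 of 3 hSRY-ON arrays, was lower by -0.59 without background correction and was not tested where detection on all 6 arrays was required, and 1 of the list was called without any 1 of the hSRY-OFF arrays, where Phex had an adjusted p between 0.0572 and 0.0640.

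Of 7 tested fibroblast markers 1 was called higher and 1 lower, with a median of 0.0007. Both counts are near the shares over all tested genes, 15% and 12.9%. The sums were between 23801 and 25669 in hSRY-OFF and between 24572 and 28186 in hSRY-ON. Dcn rose by 0.98 on 1 of its 2 probes and Col1a1 was lower by -0.60 (limma, adjusted p = 0.00977 and 0.0494), and the call of Col1a1 was lost under 8 of the 16 alternatives, with an adjusted p of up to 0.160. Without OFF1, OFF2 or ON2 the list had 0 genes called lower, and 2 without ON3. Col3a1 was called lower beside Col1a1 without background correction, with an offset of 50, with detection on all 6 arrays, with a variance trend and robust estimation and with array weights, and 0 genes were called lower when detection on 1 array or on none was required. Of 8 dendritic cell markers 2 were tested and 0 were called, with sums between 183 and 226 in hSRY-OFF and between 193 and 329 in hSRY-ON, and Flt3, Cd209a, Xcr1, Clec9a and Ccl22 were detected on no array. Of 6 adipocyte markers 0 passed the detection filter.

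**Figure D4:**
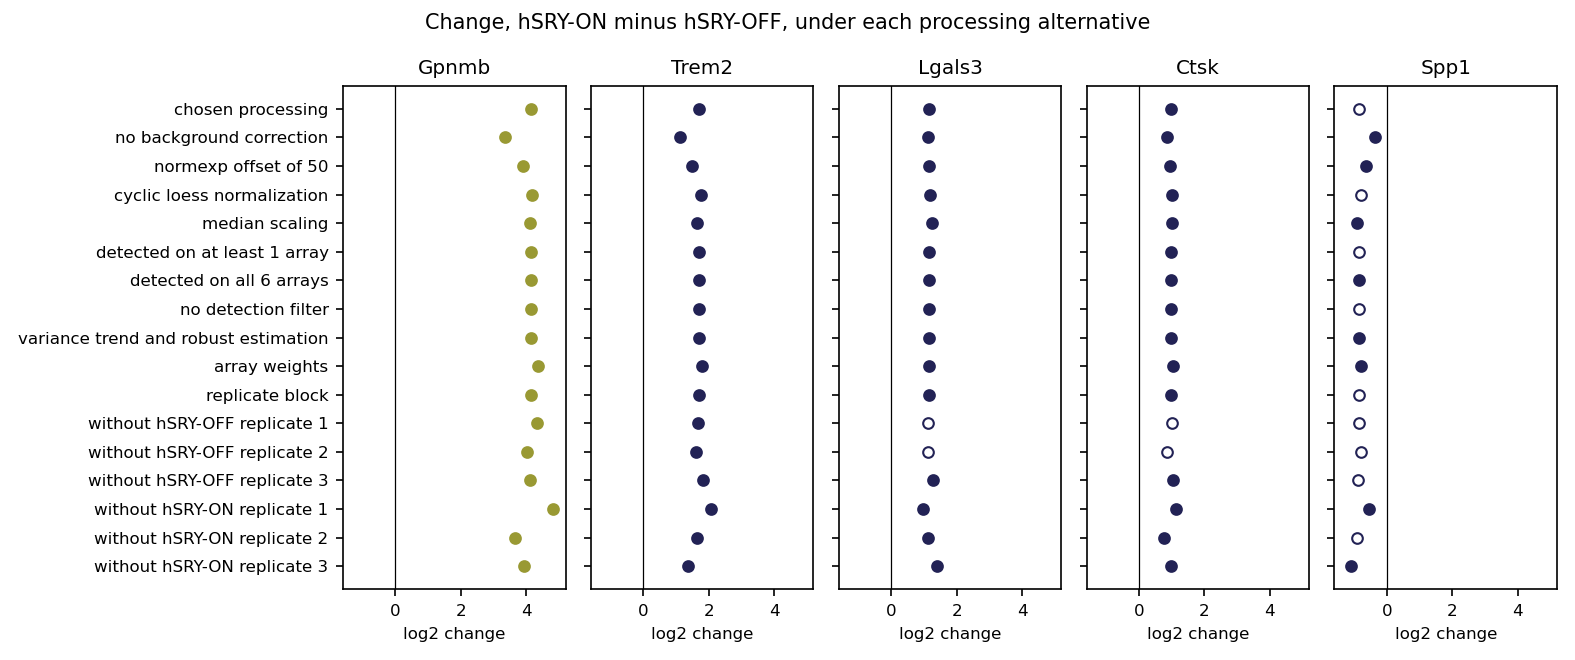
Difference between the hSRY-ON and hSRY-OFF means on the log2 scale (horizontal axis) for 5 members under 17 settings (rows), the first being the processing used here. Filled blue points have an adjusted p under 0.05 and open ones do not, and Gpnmb (olive) was not tested. Gpnmb lay between 3.36 and 4.80, Trem2 between 1.12 and 2.06, Lgals3 between 0.97 and 1.41, Ctsk between 0.76 and 1.13 and Spp1 between -1.10 and -0.37.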

How the data were processed

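Total RNA from the lungs of 6 male mice was amplified, biotin-labelled and hybridised to MouseRef-8 BeadChips by the authors. They deposited 1 table of unprocessed values, with an intensity (mean bead signal, linear scale) and a detection p-value for each probe and array. The software that summarised the beads is not given in the sources used here. The study's methods name a count-based R package (TCC). Because intensities are not counts, the comparison here was run with limma (version 3.58.1, under R 4.3.3). The submitters' processing notes also name limma.

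The function neqc inferred background from the detection p-values, added an offset of 16, quantile-normalized the arrays and gave log2 values. Testing was limited to 13841 of 25697 probes, those detected (p under 0.05) on 3 or more of the 6 arrays. Groups were taken from the sample titles and compared with lmFit and eBayes without covariates, two-sided, with Benjamini-Hochberg adjustment over all kept probes and a threshold of 0.05. An exact permutation test of 3 against 3 arrays cannot give a p below 0.1. The study's methods give 3 male mice in each group, the p-values measure the spread between these samples, and the number of arrays limits the precision. Each array detected from 13191 to 14134 probes. The offset compresses dim signals, and quantile normalization removes overall shifts.

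The members and 20 gene lists were chosen with earlier results of these data known, and the lists are described by counts and medians only. Of the 18138 array symbols, 14307 matched current RefSeq symbols and 2927 matched through a unique synonym (GRCm38.p6). Members were named whatever their result. From each list, the 2 called genes with the smallest p and no overlap of the groups were named, with Cd68, Csf1r, Adgre1, Ptprc, Apoe, Lpl, Tyrobp, Mitf and Acp5 in addition. Undetected probes are named where their absence bears on a list. The pipeline was tested on simulated data. Promoter windows came from RefSeq (GRCm38.p6), and the array's own probe sequences were not used here.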

Additional observations from a re-analysis of the deposited data

How the results depend on the processing

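The 16 alternatives changed the background correction, normalization, detection filter, variance model or block, or left out an array. Gpnmb, Trem2, Lgals3, Ctsk and Spp1 kept their direction in all of them. The number of probes that differed, 3728, ranged from 1504 to 4384 when an array was left out, and was 1326 at an adjusted p under 0.01. Of the 5 tested member probes outside Gpnmb, 3 were called higher, which became 1 to 3 without an array and 0 at an adjusted p under 0.01. The number called lower was 0 and became 1 (Spp1) without background correction, with an offset of 50, with median scaling, with detection on all 6 arrays, with a variance trend and robust estimation and with array weights, and 0 to 1 without an array. Leaving out an array turned the sign for Fabp5 (without hSRY-ON replicate 2, 0.06, and 3, 0.18), whose values then ran from -0.35 to 0.18 where it passed the filter, and for Adgre1 (-0.11 without hSRY-OFF replicate 2, -0.16 without hSRY-ON replicate 1), which ran from -0.16 to 0.27, all uncalled. Over 43 named probes, 616 of 676 values kept their direction and call, 47 lost the call, 8 gained it, 4 reversed and 1 moved without a test (Gpnmb ILMN_2614655 without background correction). The cause was not tested.

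Replicate numbers were shared between groups, and no pairing of the samples by number was seen. The correlations of deviations from the group means were -0.11, 0.10 and -0.09 for replicates 1, 2 and 3. With so few arrays these values cannot exclude a shared litter or batch. With the replicate number as a block, 2655 probes were called, 3 member probes were higher and 0 lower, and 1 of 3 hSRY-OFF arrays matched its own number best. Dim probes near background, here Atp6v0d2, Mmp12, Fabp5 and the Gpnmb probes other than ILMN_2648669, limit what can be read. For ILMN_2614655 this holds in hSRY-OFF, where it was detected on 1 array.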
